A study of Mus musculus with 4 samples.

Results

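Signalling by the epidermal growth factor (EGF) receptor family was followed through 8 genes, the ligand genes Areg, Ereg, Hbegf, Tgfa, Btc and Nrg1 and the receptor genes Egfr and Erbb3. They were chosen by gene symbol from the 30406 genes shared by all 4 libraries, and each of the 8 was found in every library. The libraries are droplet single-cell RNA-seq libraries from C57BL6J mice that carried syngeneic KPCA cancer cells. The ascites library came from KPCA ascites at 9 weeks of age, and its line of origin is not labelled. The tumor libraries came from omental tumors at 8 weeks of age, 1 library per line (KPCA.A, KPCA.B or KPCA.C), and each pools 4 tumors, so animals cannot be told apart within it. The labels name fallopian tube epithelial cells as the cell type of all 4 libraries. KPCA cells are known as genetically engineered mouse fallopian tube epithelial cells. What sets the 3 lines apart is not labelled. The comparisons ask which cells of each tumor and of the ascites carry the ligands and which carry the receptors.

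Each group is 1 library, so no difference below has a replicate check or a test. Intervals are 95% intervals that cover counting error only. Levels are CPM: the UMIs of a gene (tags that mark single captured transcripts) summed over a cell class of a library and scaled to 1000000 UMIs of that class. Cells were grouped into classes by marker genes, and class names end in "-like" because they rest on markers alone. Total depth was 7420674 UMIs in ascites and between 40054369 and 95130645 UMIs in the tumors. After filtering, 2921 ascites cells were used, against 2648, 2586 and 3098 cells in KPCA.A, KPCA.B and KPCA.C. The median cell had 2077 UMIs in ascites, against 7910, 7958 and 14660 UMIs in the same order of tumors, and the mitochondrial limit removed 53.1%, 22.4% and 24.3% of the barcodes of these tumors, against 5.42% in ascites. Pairs of tumor libraries shared 2 to 16 cell barcodes, and ascites shared 0 with each. Tumor epithelial-like cells numbered 14 in ascites and 954, 417 and 1372 in the tumors. They carried Krt8 at 2407, 1029 and 1316 CPM in KPCA.A, KPCA.B and KPCA.C, but Epcam at 254, 377 and 7.82 CPM, so in KPCA.C the epithelial label rests on keratins. Most ascites cells, 2186 of 2921, were macrophage-like, which goes against the labelled cell type.

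The EGF receptor family consists of receptor tyrosine kinases that act in pairs. Amphiregulin (Areg), transforming growth factor alpha (Tgfa), betacellulin (Btc), epiregulin (Ereg) and heparin-binding EGF-like growth factor (Hbegf) are made as membrane proteins, are cut loose by proteases, mainly Adam17 and, for betacellulin, Adam10, and bind Egfr. Neuregulin 1 (Nrg1) binds Erbb3, which has little kinase activity of its own and signals with Erbb2. Signalling runs through the adaptors Grb2 and Shc1 and the kinase ERK, whose targets include Dusp and Spry feedback inhibitors, Egr1 and Myc.

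Areg, Ereg and Btc are neighbours on chromosome 5 of GRCm38, within 328.4 kb. In GENCODE vM21 coordinates Ereg (ENSMUSG00000029377) spans 91074622 to 91093646 and Areg (ENSMUSG00000029378) spans 91139599 to 91148432, both on the plus strand, and Btc (ENSMUSG00000082361) spans 91357261 to 91402994 on the minus strand. A further ligand gene, Epgn, precedes them at 91027464 to 91035215. Tgfa (ENSMUSG00000029999) lies on chromosome 6 at 86195223 to 86275719. Egfr (ENSMUSG00000020122) lies on chromosome 11 at 16752203 to 16918158 and Erbb3 (ENSMUSG00000018166) on chromosome 10 at 128567523 to 128589652. RefSeq promoter sequences on GRCm38.p6, from 250 bases before the gene start to 50 bases after it, were at hand for 4 of the 8 genes. All 4 are shown, and they were not chosen by level. In tumor epithelial-like cells Areg, Btc and Egfr were lower in KPCA.B than in both other lines, while Tgfa was not. Whether the sequences bear on this was not tested. Capitals mark matches on either strand to the cyclic AMP response element TGACGTCA, the AP-1 site TGANTCA or the TATA box TATAAA, which share no match in these windows. The windows are chr5:91139349-91139648 (plus strand) for Areg, chr5:91402945-91403244 (minus strand) for Btc, chr11:16751953-16752252 (plus strand) for Egfr and chr6:86194972-86195271 (plus strand) for Tgfa.
Areg: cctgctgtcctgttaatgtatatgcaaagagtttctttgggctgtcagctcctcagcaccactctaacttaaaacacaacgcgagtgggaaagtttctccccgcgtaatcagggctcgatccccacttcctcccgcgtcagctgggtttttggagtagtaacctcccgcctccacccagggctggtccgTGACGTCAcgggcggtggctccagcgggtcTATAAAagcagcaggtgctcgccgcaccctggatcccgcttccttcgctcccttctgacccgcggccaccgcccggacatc
Btc: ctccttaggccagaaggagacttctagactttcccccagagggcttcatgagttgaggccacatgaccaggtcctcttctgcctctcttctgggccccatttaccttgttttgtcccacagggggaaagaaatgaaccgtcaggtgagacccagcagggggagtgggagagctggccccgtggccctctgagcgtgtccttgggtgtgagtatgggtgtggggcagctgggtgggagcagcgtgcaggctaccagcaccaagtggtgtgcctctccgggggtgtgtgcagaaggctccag
Egfr: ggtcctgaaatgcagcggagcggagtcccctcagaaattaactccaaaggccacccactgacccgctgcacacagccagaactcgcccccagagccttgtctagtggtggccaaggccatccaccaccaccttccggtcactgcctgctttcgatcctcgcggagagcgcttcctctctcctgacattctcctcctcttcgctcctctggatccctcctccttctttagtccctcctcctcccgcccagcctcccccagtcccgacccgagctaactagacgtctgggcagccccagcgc
Tgfa: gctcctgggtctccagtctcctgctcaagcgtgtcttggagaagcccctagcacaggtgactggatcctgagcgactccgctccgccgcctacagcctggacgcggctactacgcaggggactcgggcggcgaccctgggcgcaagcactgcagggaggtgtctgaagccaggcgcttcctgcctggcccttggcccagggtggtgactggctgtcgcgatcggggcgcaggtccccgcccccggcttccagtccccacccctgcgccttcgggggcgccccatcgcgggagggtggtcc
The Areg window held TGACGTCA from base -61 to -54 and TATAAA from base -31 to -26, counted from the gene start. TGACGTCA was in 1.79% of 32851 promoters of the same length, TATAAA in 13.6% and TGANTCA in 7.81%. None of the 3 motifs was in the Btc, Egfr or Tgfa window, which says only that these letters are not there.

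In the tumors, the ligand genes came mainly from tumor epithelial-like cells, with Nrg1 shared between these and macrophage-like cells and Ereg found mostly outside them in 2 of the 3 lines. Tumor epithelial-like cells held 98.9%, 85.4% and 98.1% of all Areg UMIs in KPCA.A, KPCA.B and KPCA.C, and 92.7%, 87.3% and 93.7% of all Hbegf UMIs. They held 94.3%, 71.1% and 98.2% of the Btc UMIs and 74.0%, 71.3% and 74.5% of the Tgfa UMIs. For Ereg these shares were 6.38%, 8.33% and 95.1%, and fibroblast-like cells held 89.4% of the Ereg UMIs in KPCA.A and, of the 12 UMIs in KPCA.B, 6, with 5 in mesothelial-like cells. For Nrg1 they were 62.0%, 51.7% and 61.7%, with 35.9%, 42.9% and 37.1% in macrophage-like cells. The receiving side was spread differently. Egfr UMIs lay to 74.8%, 45.3% and 80.3% in tumor epithelial-like cells, and to 19.3%, 19.2% and 15.1% in fibroblast-like cells. Mesothelial-like cells held 32.3% of them in KPCA.B, where most cells of this class lay in another cluster than in KPCA.A and KPCA.C, as given below. These shares depend on how many cells of each class were captured and on their depth. In the sums used here, fewer cells of a type and less RNA per cell cannot be told apart in a share, whereas CPM within a class is free of the number of cells.

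**Figure D1:**
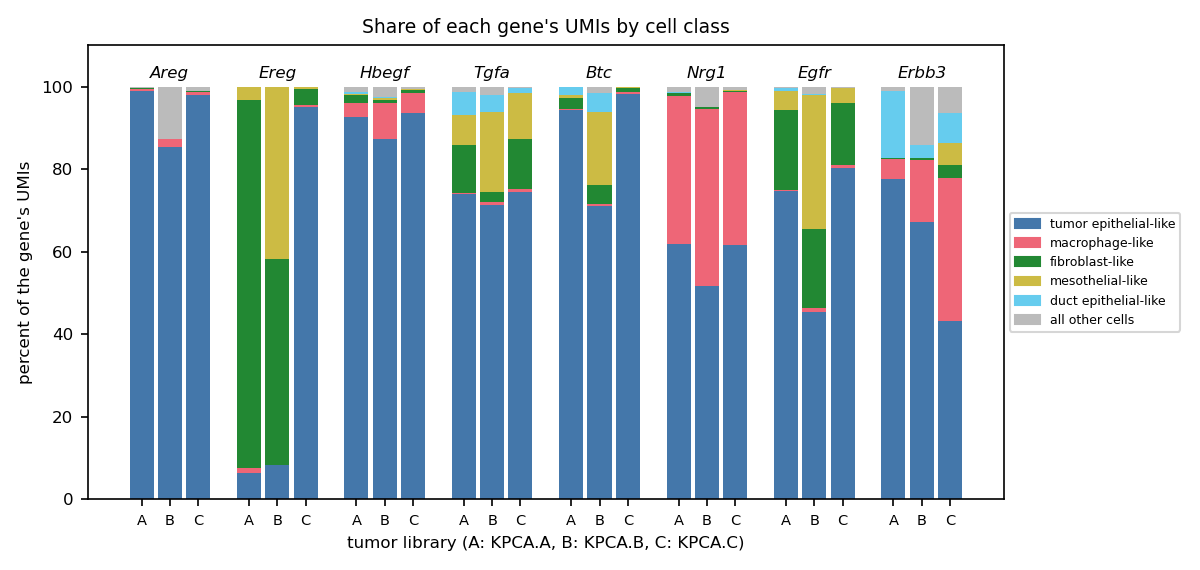
Stacked bars give, for each gene and tumor library, the percent of the gene's UMIs found in each cell class (vertical axis, percent). Tumor epithelial-like cells fill most of each bar except for Ereg in KPCA.A and KPCA.B (6.38% and 8.33%), Egfr in KPCA.B (45.3%) and Erbb3 in KPCA.C (43.2%).

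**Figure D2:**
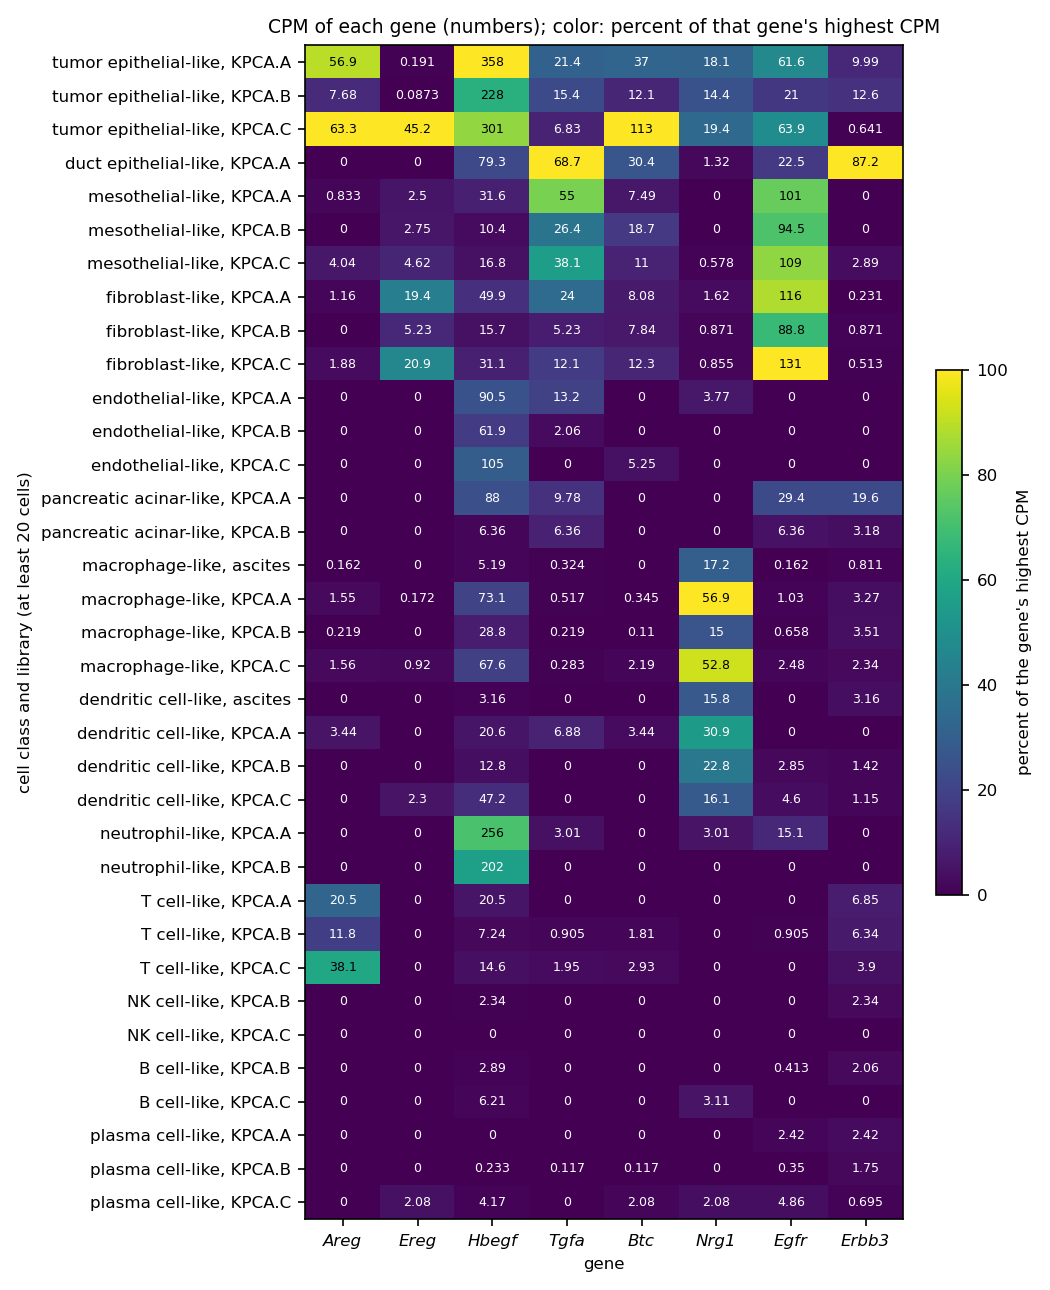
Each cell of the map prints the CPM of a gene (columns) in a cell class of a library with at least 20 cells (rows), and its color is the percent of that gene's own highest CPM. Over all libraries, Areg, Hbegf and Btc peak in tumor epithelial-like cells, Nrg1 in macrophage-like cells of KPCA.A and KPCA.C, Egfr in fibroblast-like and mesothelial-like cells, and Tgfa and Erbb3 in duct epithelial-like cells of KPCA.A. Within KPCA.B, Areg is higher in T cell-like than in tumor epithelial-like cells (11.8 against 7.68 CPM). Btc there is higher in mesothelial-like than in tumor epithelial-like cells (18.7 against 12.05 CPM).

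Between lines, a member was counted as past 2-fold when its CPM differed by more than 2 times and both libraries together had at least 50 UMIs. All genes were counted by the same rule, in which the intervals played no part. In tumor epithelial-like cells, KPCA.A and KPCA.C both had several times more Areg, Btc and Egfr than KPCA.B, Ereg was high in KPCA.C alone, and KPCA.C was low in Erbb3 and Tgfa. For KPCA.A over KPCA.B, 3 of 7 members with enough UMIs were past 2-fold, against 14.9% of all genes. For KPCA.A over KPCA.C, 4 of 8 were, against 17.4% of all genes, and for KPCA.B over KPCA.C, 6 of 8 were, against 24.6% of all genes. The median log2 ratio over the members was 0.65, -0.08 and -1.02 in these 3 comparisons, beside -0.05, 0.07 and 0.12 over all genes. The 3 comparisons share their libraries, so they are not independent of each other. Ereg, with 6, 1 and 2893 UMIs in KPCA.A, KPCA.B and KPCA.C, was counted only in the comparisons with KPCA.C. Erbb3, with 41 UMIs in KPCA.C, reached 50 UMIs in those comparisons through the other line alone. Each other member had at least 88 UMIs in every line. Counts and medians with KPCA.C thus include members let in by the line where they are high, and are a description only.

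**Figure D3:**
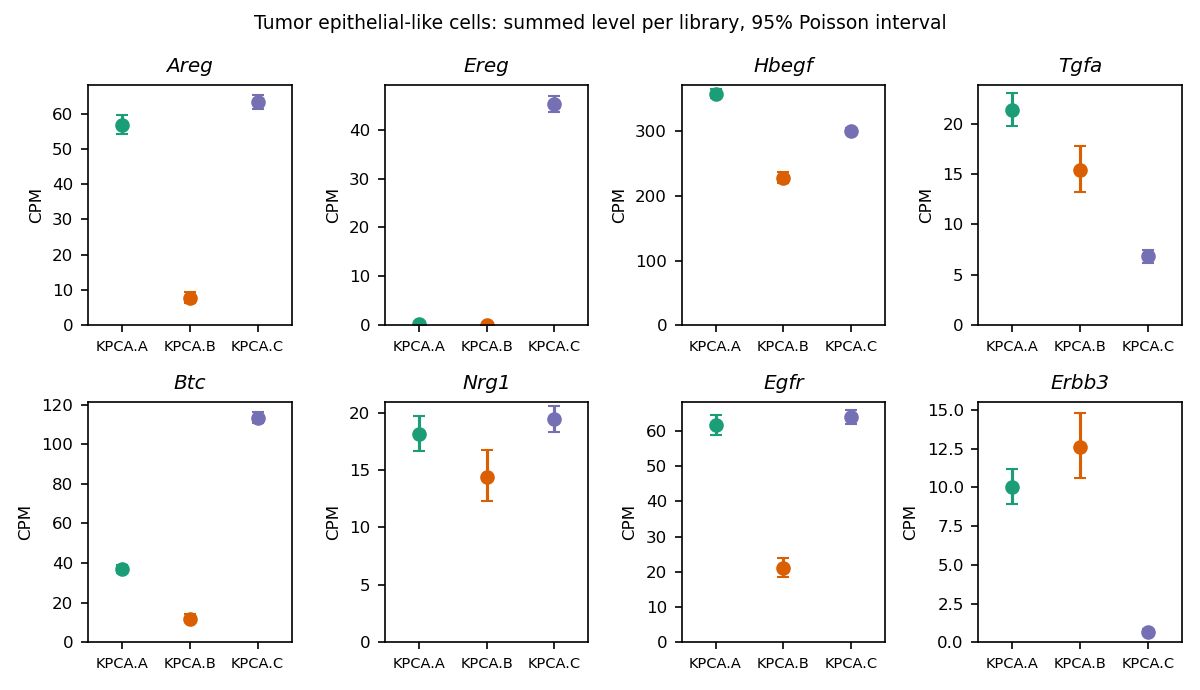
Points give, for each gene, the CPM in tumor epithelial-like cells for each line, KPCA.A to KPCA.C, with 95% Poisson intervals and a separate vertical axis from 0 for each gene. KPCA.B lies lowest for Areg, Btc and Egfr, KPCA.C lies alone at 45.2 CPM for Ereg, and KPCA.C lies lowest for Tgfa and Erbb3.

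Areg, a low-affinity Egfr ligand that marks epithelial and regulatory T cell responses to injury, stood at 56.9, 7.68 and 63.3 CPM in KPCA.A, KPCA.B and KPCA.C, from 1787, 88 and 4051 UMIs. KPCA.B was the low line. Areg was 7.40-fold higher in KPCA.A than in KPCA.B (5.97 to 9.27), and KPCA.B lay 8.24-fold below KPCA.C (6.68 to 10.3). KPCA.A and KPCA.C differed by less, with a ratio of 0.898 (0.849 to 0.949). With each cell weighted alike in place of each UMI, the log2 ratio of KPCA.A over KPCA.B was 1.53, against 2.89 as summed, and that of KPCA.B over KPCA.C was -2.01, against -3.04. A minority of cells held the transcripts: the 10% of tumor epithelial-like cells with most Areg held 85.2% of its UMIs in KPCA.A, all 88 UMIs in KPCA.B and 67.7% in KPCA.C, and the highest cell had 163, 9 and 76 UMIs. A UMI of Areg was seen in 26.2%, 10.1% and 41.2% of these cells at median depths of 32374, 22556 and 47120.5 UMIs, against 0.703%, 0.316% and 1.498% of macrophage-like cells at 5780, 12359.5 and 10459 UMIs. After thinning every cell to 2000 UMIs, the shares of tumor epithelial-like cells were 5.95%, 1.70% and 9.17%. At 1000 UMIs they were 3.07%, 2.11% and 4.16%, where KPCA.A and KPCA.B were close.

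Areg did not follow 1 tumor cluster. Leiden clustering placed these cells in 5 clusters. Cluster 16, led by gastric-type genes such as Tff1 and Gkn1 and by Epcam, held 203 KPCA.A and 82 KPCA.B cells, and cluster 12, led by Grem1 and Igfbp3, held 563 KPCA.C cells and few others. Cluster 13 is led by mitosis genes, cluster 15 by Cdh6 and Piezo2, and cluster 4 holds shallow cells with a median of 937 UMIs. In KPCA.A, Areg was at 88.0 CPM in cluster 16, 51.3 CPM in cluster 15 and 37.7 CPM in cluster 13. In KPCA.B it was at 4.16, 8.97 and 8.19 CPM in the same 3 clusters. In KPCA.C it was at 84.9 CPM in cluster 13, 63.0 CPM in cluster 15 and 50.3 CPM in cluster 12. KPCA.A thus lay above KPCA.B in each cluster they both filled, other than the shallow cluster 4, where KPCA.A had 2 Areg UMIs and KPCA.B had 3.

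Ereg, which binds Egfr with low affinity and also activates Erbb4, was carried by tumor epithelial-like cells of 1 line. It was at 0.191, 0.0873 and 45.2 CPM in KPCA.A, KPCA.B and KPCA.C, from 6, 1 and 2893 UMIs. Ereg was 237-fold lower in KPCA.A than in KPCA.C (109 to 646), and KPCA.B lay 518-fold below KPCA.C, with an interval of 92.9 to 20470.4 since it rests on 1 UMI in KPCA.B. Cells with a UMI made up 0.314%, 0.240% and 40.1%, beside 0.117%, 0% and 1.06% of macrophage-like cells. Thinned to 2000 UMIs, the shares were 0.127%, 0% and 7.14%. Within KPCA.C, Ereg was at 51.6 CPM in cluster 12 and 49.0 CPM in cluster 13, against 7.75 CPM in cluster 15 and 8.29 CPM in cluster 4. Cluster 15 is filled by all 3 lines, and there KPCA.A had 1 Ereg UMI and KPCA.B had 0. Fibroblast markers were also higher in KPCA.C tumor epithelial-like cells, with 9 of 9 markers found in every line and summed levels of 488, 231 and 1226 CPM in KPCA.A, KPCA.B and KPCA.C. If all Dcn UMIs of the KPCA.C tumor epithelial-like cells came with fibroblast-like RNA, that RNA would bring 1.65 CPM of Ereg, against the 45.2 CPM measured.

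Btc, a ligand of Egfr and Erbb4, followed the order C, A, B. It stood at 37.0, 12.05 and 113.4 CPM in KPCA.A, KPCA.B and KPCA.C, from 1163, 138 and 7255 UMIs. Btc was 3.07-fold higher in KPCA.A than in KPCA.B (2.57 to 3.69), 3.07-fold lower in KPCA.A than in KPCA.C (2.88 to 3.26), and KPCA.B lay 9.41-fold below KPCA.C (7.96 to 11.2). The order held within clusters 13 and 15: Btc was at 36.8, 14.2 and 119.2 CPM in cluster 13 and at 38.1, 12.2 and 74.6 CPM in cluster 15. With cells weighted alike, the log2 ratio of KPCA.B over KPCA.C was -2.41, against -3.23 as summed. Thinned to 2000 UMIs, 6.96%, 2.38% and 15.1% of the cells had a Btc UMI, beside 0.279%, 0% and 0.487% of macrophage-like cells. Of the 3 chromosome 5 neighbours, Areg and Btc were thus both lowest in KPCA.B, whereas Ereg was low in KPCA.A too, and Epgn had 3, 1 and 9 UMIs in these cells.

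**Figure D4:**
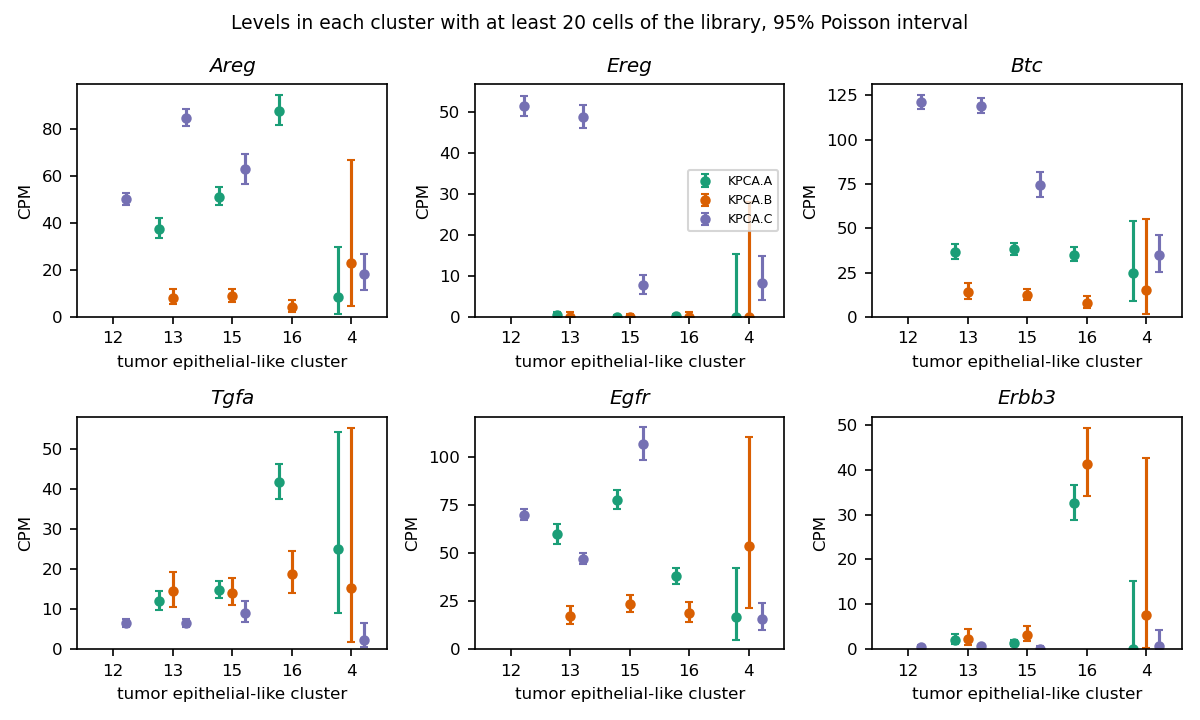
Points give the CPM of 6 genes in each tumor epithelial-like cluster (horizontal axis) for each line with at least 20 cells in it, with 95% Poisson intervals. KPCA.C lies above the other lines for Ereg and Btc in cluster 13, KPCA.B lies low for Areg and Btc in clusters 13, 15 and 16, and Erbb3 is high in cluster 16 at 32.6 CPM in KPCA.A and 41.2 CPM in KPCA.B.

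Hbegf (ENSMUSG00000024486, chromosome 18, 36504927 to 36515805 on the minus strand), a ligand of Egfr and Erbb4 that binds heparan sulfate, was high in the tumor epithelial-like cells of all 3 lines, at 358.3, 228.1 and 300.9 CPM in KPCA.A, KPCA.B and KPCA.C. Its ratios were 1.57 for KPCA.A over KPCA.B (1.51 to 1.64), 1.19 for KPCA.A over KPCA.C (1.16 to 1.22) and 0.758 for KPCA.B over KPCA.C (0.727 to 0.790), all short of 2-fold. A UMI was seen in 74.6%, 59.95% and 68.6% of these cells, against 0%, 0.604% and 4.17% of plasma cell-like cells at median depths of 10697, 22950 and 25269 UMIs. Plasma cell-like cells are the lowest class for Hbegf, with a median of 0.233 CPM over the tumors. Macrophage-like cells were at 73.1, 28.8 and 67.6 CPM in KPCA.A, KPCA.B and KPCA.C. Thinned to 2000 UMIs, the shares of tumor epithelial-like cells were 39.1%, 29.25% and 34.75%. Tgfa, the classical autocrine Egfr ligand of epithelia, was at 21.4, 15.4 and 6.83 CPM in KPCA.A, KPCA.B and KPCA.C. KPCA.C was the low line. Tgfa was 3.12-fold higher in KPCA.A than in KPCA.C (2.77 to 3.53) and KPCA.B lay 2.25-fold above KPCA.C (1.88 to 2.69). Leaving out cells that carried markers of another class brought the log2 ratio of KPCA.B over KPCA.C to 0.90, below 2-fold. In KPCA.A, Tgfa was at 41.7 CPM in cluster 16 and at 11.97 and 14.7 CPM in clusters 13 and 15. In the same 3 clusters it was at 18.7, 14.5 and 13.95 CPM in KPCA.B. KPCA.C, which has 8 cells in cluster 16, had Tgfa at 6.45 and 9.09 CPM in clusters 13 and 15, so KPCA.C lay closer to the other lines within clusters 13 and 15 than over the whole class, apart from KPCA.B over KPCA.C in cluster 13. Nrg1 (ENSMUSG00000062991, chromosome 8, 31814551 to 32884029 on the minus strand) was at 18.1, 14.4 and 19.4 CPM in KPCA.A, KPCA.B and KPCA.C, with all 3 ratios inside 2-fold.

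Among the receptors, Egfr, which binds the ligands other than Nrg1, was lowest in KPCA.B. It stood at 61.6, 21.04 and 63.9 CPM in KPCA.A, KPCA.B and KPCA.C, from 1935, 241 and 4085 UMIs. Egfr was 2.93-fold higher in KPCA.A than in KPCA.B (2.56 to 3.36) and KPCA.B lay 3.04-fold below KPCA.C (2.67 to 3.47), while KPCA.A over KPCA.C gave 0.964 (0.913 to 1.02). These 2 differences were below 2-fold with each cell weighted alike, at log2 0.57 and -0.58, where the shallow cells of cluster 4 weigh more. In that cluster Egfr was at 16.6, 53.5 and 15.8 CPM in the 3 lines, from 4, 7 and 21 UMIs. In cells thinned to 2000 UMIs, Egfr was seen in 11.01%, 3.06% and 10.3%, beside 0.279%, 0.170% and 0.292% of macrophage-like cells. RNA that came with Dcn from fibroblast-like cells would bring 0.297, 1.38 and 10.4 CPM of Egfr to the 3 lines. Egfr was at 37.9 CPM in cluster 16 of KPCA.A, 59.7 CPM in cluster 13 and 77.8 CPM in cluster 15, against 18.7, 17.3 and 23.3 CPM in KPCA.B. In KPCA.C it was at 47.05 CPM in cluster 13, 106.8 CPM in cluster 15 and 69.9 CPM in cluster 12.

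Erbb3, the Nrg1 receptor, was at 9.99, 12.6 and 0.641 CPM in KPCA.A, KPCA.B and KPCA.C, from 314, 144 and 41 UMIs. Erbb3 was 15.6-fold higher in KPCA.A (11.2 to 22.1) and 19.6-fold higher in KPCA.B (13.8 to 28.5), each against KPCA.C. Of these UMIs, 278 of 314 in KPCA.A and 119 of 144 in KPCA.B lay in cluster 16, or 32.6 and 41.2 CPM, where KPCA.C has 8 cells. In cluster 13 it was at 2.09, 2.20 and 0.590 CPM and in cluster 15 at 1.33, 3.19 and 0 CPM. Its partner Erbb2 was at 20.3, 22.4 and 9.65 CPM, 2.11-fold higher in KPCA.A (1.88 to 2.36) and 2.33-fold higher in KPCA.B (2.003 to 2.695), each against KPCA.C. Erbb4 had 32 UMIs in duct epithelial-like cells of KPCA.A, or 42.3 CPM, and under 5 UMIs in every other class for which a level was computed. A UMI of Egfr and a UMI of at least 1 of its 5 ligands were seen in the same cell in 57.8%, 27.3% and 57.1% of tumor epithelial-like cells, and 95.8%, 89.1% and 96.1% of the cells with Egfr also had such a ligand. In fibroblast-like cells both were seen in 51.5%, 21.3% and 63.2% of cells, and 64.2%, 36.1% and 69.4% of those with Egfr had such a ligand. With or without Egfr, such a ligand was seen in 753 of 954, 268 of 417 and 1005 of 1372 tumor epithelial-like cells. For fibroblast-like cells the counts were 119 of 198, 15 of 61 and 90 of 136. All these shares depend on depth, and were not thinned.

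Among stromal cells, fibroblast-like cells carried Egfr at 115.5, 88.8 and 131.2 CPM in KPCA.A, KPCA.B and KPCA.C, and mesothelial-like cells at 100.7, 94.5 and 109.2 CPM. The 2 classes overlapped each other and lay above the tumor epithelial-like class of every line taken as a whole. Tumor epithelial-like cluster 15 of KPCA.C, at 106.8 CPM, lay above both classes of KPCA.B. The mesothelial-like class was made up differently in KPCA.B. Cluster 6.1, led by Col6a5 and Enpp2 with Krt8 at 37.4 CPM, held 54 of its 64 KPCA.B cells, and 3 each in KPCA.A and KPCA.C. Cluster 6.0, with Krt8 at 428.4 CPM, held 39 of 42 cells in KPCA.A, 10 in KPCA.B and 33 of 36 in KPCA.C. Levels of this class in KPCA.B and in the other lines are thus not of like cells. Mesothelial-like cells also carried Dcn at 3110, 4108 and 3151 CPM, more than fibroblast-like cells of the same lines. Dcn therefore cannot gauge fibroblast-like RNA in mesothelial-like cells. Scaled by Dcn, such RNA would bring 176.8, 100.7 and 153.9 CPM of Egfr to them, which is no estimate, since it takes more Dcn than fibroblast-like cells have. The part of fibroblast-like RNA in the measured Egfr levels was not tested. Ereg was at 19.4, 5.23 and 20.9 CPM in fibroblast-like cells and at 2.498, 2.75 and 4.62 CPM in mesothelial-like cells. Tgfa was at 55.0, 26.4 and 38.1 CPM in mesothelial-like cells, above tumor epithelial-like cells in each line. For KPCA.A over KPCA.B, 3 of 4 members with enough UMIs were past 2-fold in fibroblast-like cells, against 10.5% of all genes. For KPCA.A over KPCA.C, 0 of 5 were, against 5.31%, and for KPCA.B over KPCA.C, 2 of 5 were, against 13.8%. No test or p-value exists for this count of 0, since each line is 1 library. Ereg, Hbegf and Tgfa made up the 3 of 4, and reached 50 UMIs through KPCA.A alone, with 6, 18 and 6 UMIs in KPCA.B. Btc, with 35 and 9 UMIs and a ratio of 1.03, was left out by the same limit. Ereg and Tgfa made up the 2 of 5, with 6 UMIs each in KPCA.B, against 122 and 71 in KPCA.C. These counts are therefore not a result about the members.

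In fibroblast-like cells Ereg was 3.71-fold higher in KPCA.A than in KPCA.B (1.64 to 10.4), and KPCA.B lay 3.99-fold below KPCA.C (1.78 to 11.1). Hbegf was at 49.9, 15.7 and 31.1 CPM, 3.18-fold higher in KPCA.A than in KPCA.B (1.97 to 5.47). Tgfa was at 24.0, 5.23 and 12.1 CPM, 4.596-fold higher in KPCA.A than in KPCA.B (2.04 to 12.8), and KPCA.B over KPCA.C gave 0.430 (0.153 to 0.984). Its KPCA.B value rests on 6 UMIs in 61 cells. With the looser cell filter and at Leiden resolutions 0.5 and 2, the log2 ratio of KPCA.A over KPCA.B was 0.72, 0.76 and 0.87, against 2.20, and that of KPCA.B over KPCA.C was 0.03, 0.01 and 0.16, against -1.22, so neither stayed past 2-fold. With cells that carried markers of another class left out, the log2 ratios of KPCA.A over KPCA.B were 1.26 for Ereg, against 1.89, and 1.03 for Hbegf, against 1.67. Macrophage markers reached 1853.4 CPM in fibroblast-like cells of KPCA.B, with 12 of 12 found, against 73.9 CPM in KPCA.A and 315.2 CPM in KPCA.C, and their part in these differences was not tested.

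Other classes held single members at a high level. Duct epithelial-like cells of KPCA.A, 80 cells in all, had Tgfa at 68.7 CPM (51.3 to 90.1), Erbb3 at 87.2 CPM (67.4 to 110.9), Erbb2 at 44.9 CPM and Egfr at 22.5 CPM (13.1 to 36.0). Hbegf reached 255.9 CPM (204 to 316) in neutrophil-like cells of KPCA.A and 201.7 CPM (119.5 to 319) in those of KPCA.B, whose range overlaps that of the tumor epithelial-like cells. In endothelial-like cells Hbegf was at 90.5, 61.9 and 105 CPM in KPCA.A, KPCA.B and KPCA.C. T cell-like cells also carried Areg, at 20.5 CPM (4.24 to 60.03), 11.8 CPM (6.27 to 20.1) and 38.1 CPM (27.1 to 52.05) in KPCA.A, KPCA.B and KPCA.C. In KPCA.C, 33 of their 39 Areg UMIs lay in 25 cells with a UMI of Foxp3, the regulatory T cell factor, at 171.7 CPM, and the other 6 lay in 144 cells, at 7.21 CPM. The 33 UMIs came from 6 cells. KPCA.B showed no such split, at 12.04 CPM from 1 UMI in 23 cells with Foxp3 and 11.75 CPM from 12 UMIs in 204 cells without, and KPCA.A had 2 UMIs in 5 cells with Foxp3 and 1 in 39 without. This split was made after the values were seen. RNA that came with Krt8 from tumor epithelial-like cells would bring 0.485, 0.0405 and 1.32 CPM of Areg to T cell-like cells. NK cell-like, B cell-like and plasma cell-like cells had 0 Areg UMIs in each library with at least 20 of these cells, which in the 577 KPCA.B B cell-like cells allows a share of cells with an Areg UMI of up to 0.520% and sets no limit on the share that expresses it.

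Macrophage-like cells of the tumors carried Nrg1 and Hbegf, both lower in KPCA.B. Nrg1 was at 56.9, 15.01 and 52.8 CPM in KPCA.A, KPCA.B and KPCA.C, from 330, 137 and 746 UMIs. Hbegf was at 73.1, 28.8 and 67.6 CPM in the same order. For KPCA.A over KPCA.B, 2 of 3 members with enough UMIs were past 2-fold, against 10.4% of all genes. For KPCA.A over KPCA.C, 0 of 3 were, against 4.85%, and for KPCA.B over KPCA.C, 2 of 3 were, against 11.9%. Nrg1 was 3.79-fold higher in KPCA.A than in KPCA.B (3.095 to 4.66), and KPCA.B lay 3.52-fold below KPCA.C (2.93 to 4.25). Hbegf was 2.54-fold higher in KPCA.A than in KPCA.B (2.17 to 2.97), and KPCA.B lay 2.35-fold below KPCA.C (2.04 to 2.70). KPCA.A and KPCA.C were close, with ratios of 1.08 for both genes (0.944 to 1.23 for Nrg1, 0.962 to 1.21 for Hbegf).

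The macrophage-like cells of the lines lay in different clusters, and the 2 genes behaved differently within them. Cluster 25, led by Retnla and Lyve1, held 319 of 632 KPCA.B cells, against 35 of 853 in KPCA.A and 111 of 1135 in KPCA.C, and Nrg1 was low there in all lines, at 9.56, 10.2 and 12.7 CPM. In cluster 7, led by Ms4a4c and Ccr2, Nrg1 was at 89.3, 28.2 and 59.2 CPM and Hbegf at 66.2, 12.1 and 72.5 CPM, so KPCA.B was low within this cluster too. In cluster 9.3, led by Mmp12 and Ccl24, Nrg1 was at 71.6, 16.6 and 84.8 CPM, while Hbegf was at 81.1, 115.9 and 76.7 CPM, not lower in KPCA.B. KPCA.B had 22 cells in cluster 9.3, with 42 Hbegf UMIs. In cluster 9.2, led by Cxcl9 and Cx3cr1, Hbegf was at 19.05, 34.1 and 15.9 CPM, also highest in KPCA.B. In cluster 25 Hbegf was at 62.1, 19.3 and 26.1 CPM, lowest in KPCA.B. Krt8 of tumor epithelial-like cells was found in the macrophage-like cells at 47.6, 4.82 and 48.0 CPM, lowest in KPCA.B as Hbegf and Nrg1 were. RNA that came with it would bring 7.08, 1.07 and 10.97 CPM of Hbegf and 0.358, 0.0675 and 0.708 CPM of Nrg1, below the measured levels. For Areg, Btc, Ereg and Egfr in KPCA.C macrophage-like cells, the measured 1.56, 2.19, 0.920 and 2.48 CPM stood beside 2.31, 4.14, 1.65 and 2.33 CPM that such RNA would bring, so the measured level was below it for all but Egfr. The part of such RNA in these levels was not tested.

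**Figure D5:**
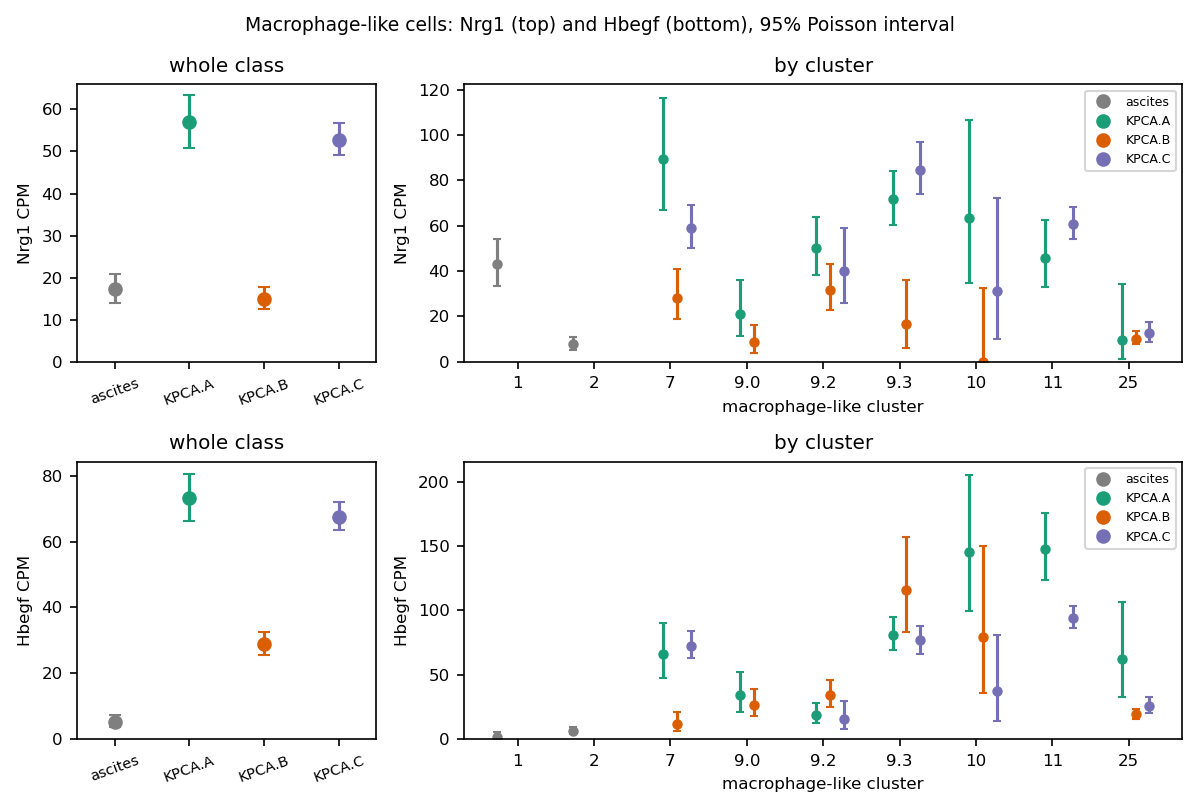
Points give the CPM of Nrg1 (top) and Hbegf (bottom) in macrophage-like cells from ascites and from the 3 tumor libraries, over the whole class (left) and in each cluster with at least 20 cells of the library (right), with 95% Poisson intervals. Ascites lies at 17.2 CPM for Nrg1, near KPCA.B, and at 5.19 CPM for Hbegf, below all 3 tumors.

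The ascites held few of the 8 genes. Its 2921 cells gave 120 Nrg1 UMIs, 53 of Hbegf, 20 of Areg, 11 of Btc, 7 of Ereg, 6 of Erbb3, 5 of Tgfa and 1 of Egfr. The 14 tumor epithelial-like cells carried 19 of the Areg, 7 of the Ereg, all 11 of the Btc and 16 of the Hbegf UMIs, and 0 of Egfr, Erbb3 and Tgfa. Of these 14 cells, 5 had at least 11732 UMIs, and the Areg counts of the 5, from the deepest down, were 5, 7, 2, 4 and 1. With 134463 UMIs in the 14 cells, a count of 0 allows up to 22.3 CPM of Egfr, which is below the 61.6 and 63.9 CPM of KPCA.A and KPCA.C tumor epithelial-like cells and not below the 21.04 CPM of KPCA.B. No level is given for so few cells, and the line they came from is not stated.

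Macrophage-like cells of the ascites had Nrg1 at 17.2 CPM, against 56.9, 15.01 and 52.8 CPM in those from KPCA.A, KPCA.B and KPCA.C. Hbegf was at 5.19 CPM in ascites, against 73.1, 28.8 and 67.6 CPM. For ascites over KPCA.A, 2 of 2 members with enough UMIs were past 2-fold, against 49.8% of all genes, for ascites over KPCA.B 1 of 2, against 51.0%, and for ascites over KPCA.C 2 of 2, against 47.4%. With about as large a share of all genes past 2-fold, these counts are not a result about the members. The median log2 ratio over all genes was -0.76, -0.80 and -0.75, a shift common to most genes, and the ascites library differs from the tumors in depth and barcode set. Hbegf was 14.1-fold lower in ascites than in KPCA.A (9.82 to 20.9), 5.55-fold lower than in KPCA.B (3.84 to 8.29) and 13.02-fold lower than in KPCA.C (9.16 to 19.2). Its log2 ratios were -3.82, -2.47 and -3.70, and -3.13, -1.76 and -3.07 with median-of-ratios scaling.

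Nrg1 was 3.31-fold lower in ascites than in KPCA.A (2.65 to 4.16) and 3.07-fold lower than in KPCA.C (2.503 to 3.801), with a ratio of 1.15 to KPCA.B (0.880 to 1.49). With median-of-ratios scaling its log2 ratio was -1.04 to KPCA.A, against -1.73, and -0.99 to KPCA.C, against -1.62, the KPCA.C value short of 2-fold. At Leiden resolution 2 the Nrg1 log2 ratios were -1.11 to KPCA.A and -1.01 to KPCA.C, and those of Hbegf were -4.41, -3.06 and -4.29 to KPCA.A, KPCA.B and KPCA.C. Nrg1 was uneven among the ascites cells, at 43.1 CPM in the 746 cells of cluster 1, led by Ppbp and Pf4, against 7.75 CPM in the 1439 cells of cluster 2, led by Prg4 and Car4. Hbegf was at 1.82 and 6.43 CPM in these clusters. Neutrophil markers were high in the ascites macrophage-like cells, with 8 of 8 found and a sum of 2190.8 CPM, against 94.1, 38.7 and 68.2 CPM in the tumors, and their part in the differences was not tested. Krt8 was at 0.973 CPM there. Ascites dendritic cell-like cells had Nrg1 at 15.8 CPM from 5 UMIs, against 30.9, 22.8 and 16.1 CPM in the tumors.

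A list of 34 further genes of the pathway was read in the same comparisons. In tumor epithelial-like cells 3 of 30 were past 2-fold for KPCA.A over KPCA.B, against 14.9% of all genes, 2 of 29 for KPCA.A over KPCA.C, against 17.4%, and 5 of 29 for KPCA.B over KPCA.C, against 24.6%. These shares are not above those of all genes, so the counts are not a result about the list. Of the 13 ERK target genes, 2 were higher in KPCA.A than in KPCA.B, the phosphatase gene Dusp5 (83.0 against 26.4 CPM, 3.15-fold, 2.80 to 3.56) and Myc (53.9 against 15.9 CPM, 3.39-fold, 2.91 to 3.97). Both were past 2-fold lower in KPCA.B against KPCA.C too, and Etv5 was 2.07-fold higher (1.90 to 2.26). Nrg4, a ligand gene and no ERK target, went the other way between KPCA.A and KPCA.B. It was past 2-fold higher in KPCA.B, at 0.923 CPM in KPCA.A against 3.14 CPM in KPCA.B, from 29 and 36 UMIs. The feedback inhibitor Errfi1, which binds the Egfr kinase, was at 356.9, 201.5 and 306.8 CPM, and the ligand-releasing proteases Adam17 at 61.7, 52.4 and 50.02 CPM and Adam10 at 190.1, 178.5 and 222.6 CPM, none past 2-fold. Lrig3 was at 48.9, 49.9 and 14.8 CPM, 3.30-fold higher in KPCA.A (3.04 to 3.58) and 3.37-fold higher in KPCA.B (3.03 to 3.74), each against KPCA.C.

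In macrophage-like cells the list genes past 2-fold between KPCA.B and either other line were all lower in KPCA.B. For KPCA.A over KPCA.B, 9 of 19 were past 2-fold and all were higher, among them 6 of 8 ERK targets, against 10.4% of all genes past 2-fold in either direction. For KPCA.B over KPCA.C, 11 of 22 were past 2-fold and all were lower, among them 7 of 9 ERK targets, against 11.9% of all genes. The early response gene Egr1 was at 528.7, 132.2 and 281.2 CPM in KPCA.A, KPCA.B and KPCA.C, Dusp6 at 176.9, 53.8 and 154.4 CPM, Phlda1 at 74.6, 15.01 and 40.4 CPM and Ier3 at 539.4, 177.5 and 615.4 CPM. The median log2 ratio of the ERK targets was 1.66 for KPCA.A over KPCA.B and -1.52 for KPCA.B over KPCA.C, beside -0.04 and 0.08 over all genes. The class was made up differently in KPCA.B, where cluster 25 held 319 of 632 cells, against 35 of 853 in KPCA.A and 111 of 1135 in KPCA.C. The list genes were not read within clusters. A difference between lines and a difference in the mix of clusters therefore cannot be told apart in these counts and medians. Errfi1 was at 45.3, 17.6 and 36.5 CPM and Rhbdf2, which brings Adam17 to the cell surface, at 57.9, 26.9 and 45.3 CPM. Egfr itself was at 1.03, 0.658 and 2.48 CPM in these cells, where RNA that came with Krt8 would bring 1.22, 0.0986 and 2.33 CPM. For KPCA.A over KPCA.C, 2 of 24 were past 2-fold, Nrg4 and Spry2, both lower, against 4.85% of all genes. In fibroblast-like cells 5 of 27 genes were past 2-fold for KPCA.A over KPCA.B, all ERK targets and all higher, against 10.5% of all genes, with Fosl1 at 31.4 against 6.97 CPM and Myc at 33.0 against 6.97 CPM, each from 8 UMIs in KPCA.B. For KPCA.A over KPCA.C 1 of 28 was, Dusp6, against 5.31% of all genes, and for KPCA.B over KPCA.C 4 of 28 were, all lower, against 13.8%, which is near the share of the list.

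In ascites macrophage-like cells, 15 of 20, 10 of 20 and 15 of 22 list genes were past 2-fold lower than in KPCA.A, KPCA.B and KPCA.C, and 1 was higher in each comparison. Of all genes, 49.8%, 51.0% and 47.4% were past 2-fold in these comparisons in either direction, with the common downward shift given above. Counted in both directions, the list was near that share against KPCA.B and above it against KPCA.A and KPCA.C. The share of all genes that was lower is not given here, so the counts of lower genes alone are not a result about the list. The gene that was higher is Nrg4, a ligand of Erbb4, at 34.6 CPM from 213 UMIs in ascites, against 0.862, 2.96 and 3.40 CPM in the 3 tumors. It was 40.1-fold higher in ascites than in KPCA.A (16.9 to 124.7), 11.7-fold higher than in KPCA.B (7.80 to 18.1) and 10.2-fold higher than in KPCA.C (7.41 to 14.2), against the direction of most genes. Of the ERK targets, 8 of 8, 6 of 8 and 8 of 9 were lower, Egr1 at 17.0 CPM in ascites among them, and these counts have the same limit. Adam17 was at 25.3 CPM in ascites, against 138.8, 113.9 and 113.9 CPM in the tumors.

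For each member, the genes whose CPM followed it most closely were found over 24 sums of a class in a library, by Pearson's r of log2 CPM with 5 CPM added. The 24 sums share libraries and differ in depth, so r is a description. Areg was followed by Nmnat2 (r = 0.883), Bcl2l15 (0.870) and Acsbg1 (0.865), and Ereg by Sgcd (0.973), 4833422C13Rik (0.932) and Ccn5 (0.927), all highest in tumor epithelial-like cells of KPCA.C. Hbegf was followed by Csnk1e (0.875), Maff (0.862) and Rnf24 (0.855). Tgfa was followed by the kinase gene Brsk1 (0.961), by Erbb2 (0.923) and by Scara3 (0.921), all highest in duct epithelial-like cells of KPCA.A. Btc was followed by the potassium channel gene Kcnh2 (0.945), Sema3e (0.924) and the cadherin gene Cdh6 (0.920), which also leads tumor cluster 15. Nrg1 was followed by the matrix protein gene Tgfbi (0.873), by Asah1 (0.858) and by Gpr85 (0.824), all highest in macrophage-like cells. Egfr was followed by the Wnt receptor gene Fzd2 (0.971), Gpr39 (0.964) and Steap1 (0.962), all highest in fibroblast-like cells. Erbb3 was followed by the tight junction gene Ocln (0.944), Slc35g1 (0.940) and Cblc (0.935), all highest in duct epithelial-like cells of KPCA.A.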

How the data were processed

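RNA was measured in single cells of 4 droplet libraries. The authors deposited raw counts, whole UMI counts per gene and barcode, which Cell Ranger 4.0.0 (tumors) and 3.0.2 (ascites) wrote, per the file headers. Per the submitters' processing notes the tool was Cell Ranger 3.1.0 with build mm10. The deposited gene and barcode lists hold other values, the identifiers, symbols and barcodes of the matrices. Tumor matrices list 32285 genes and the ascites matrix 31053.

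Barcodes with at least 300 genes, 500 UMIs and at most 15% mitochondrial UMIs were used. Counts were scaled to 10000 per cell and clustered over all libraries without integration, from the 2000 most variable genes and 30 principal components, with 15 nearest neighbours, at Leiden resolution 1 (scanpy 1.11.5, anndata 0.12.19, leidenalg 0.10.2, igraph 0.11.9, scikit-learn 1.9.0, python 3.11.15, seed 1). Clusters were named by their markers. After seeing the data, mixed clusters were split again, and a tumor epithelial-like cluster had to reach 500 CPM of Krt8 and of Krt18 and 200 CPM of Cdkn2a. Scrublet called 22 of 11253 cells (0.195%), so it has not worked, and doublets were kept. A hemoglobin-led ascites cluster of 566 cells stayed unnamed.

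CPM were computed from class sums, with exact Poisson, Clopper-Pearson and conditional intervals (numpy 2.4.6, scipy 1.17.1, pandas 2.3.3; figures with matplotlib 3.10.9). Thinning left out cells shallower than the thinned depth. Compared classes needed 50 cells in each library and genes 50 UMIs over the pair. RNA brought along from another class was scaled by a marker of that class (Krt8 or Dcn), a step added after the data were seen. The script was tested on simulated data. The members and lists were chosen with earlier results of these data known. All 8 members are named, the 34 list genes are counted and some of them named with values, and named too are the 3 genes most like each member, among genes with at least 200 UMIs.

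Alternatives were other cell filters, Leiden resolutions 0.5 and 2, scaling by the median of ratios, a mean over cells, thinning, other UMI and fold limits, cells with high doublet scores or with other classes' markers left out and, chosen after seeing the data, cluster 4 left out and the unnamed ascites cluster added.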

Additional observations from a re-analysis of the deposited data

Results flagged for a closer look

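Tgfa had ratios on opposite sides of 1 in 2 cell classes between the same lines. It was at 15.4 CPM in KPCA.B against 6.83 CPM in KPCA.C in tumor epithelial-like cells, a ratio of 2.249 (1.88 to 2.69), and at 5.23 CPM in KPCA.B against 12.1 CPM in KPCA.C in fibroblast-like cells, a ratio of 0.4304 (0.153 to 0.984). What drew attention is that the 2 intervals lie on opposite sides of equal levels. The difference between the classes was not tested, since each line is 1 library, and the fibroblast-like ratio rests on 6 UMIs in KPCA.B. At Leiden resolutions 0.5 and 2 and with the looser cell filter the fibroblast-like log2 ratio was 0.01, 0.16 and 0.03, against -1.22. Without cells that carried markers of another class, the tumor epithelial-like log2 ratio was 0.90, against 1.17, so both values depend on how the cells were chosen.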

How the results depend on the processing

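Of 52 log2 ratios, 410 of 427 alternative values kept their sign. Among the 27 ratios past 2-fold, 3 of 224 alternatives reversed, all for Tgfa in fibroblast-like cells, KPCA.B over KPCA.C: log2 0.031 with the looser cell filter, 0.008 at Leiden resolution 0.5 and 0.162 at resolution 2, against -1.22, and the cause was not tested. The counts of members past 2-fold stayed within 1.5 times in 131 of 146 alternatives. In macrophage-like cells a limit of 3-fold gave 1 in place of 2 for KPCA.A over KPCA.B and for KPCA.B over KPCA.C. A limit of 20 UMIs, which lets in more members, gave 2 in place of 0 for KPCA.A over KPCA.C, 5 in place of 2 for KPCA.B over KPCA.C, 2 in place of 1 for ascites over KPCA.B and 6 in place of 2 for ascites over KPCA.C, where median-of-ratios scaling gave 1. In fibroblast-like cells, KPCA.A over KPCA.C gave 1 in place of 0 at resolution 2, without cells that carried other classes' markers and with the mean over cells, and 3 at 1.5-fold. KPCA.B over KPCA.C gave 1 in place of 2 without such cells, at 100 UMIs and at 3-fold, and 4 at 1.5-fold. No paired analysis was possible because each group is 1 library. The number of cells limits the values of the 14 ascites tumor epithelial-like and the 61 KPCA.B fibroblast-like cells.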
